A study of Homo sapiens with 12 samples.

Results

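Genes of autophagy and the lysosome were described in breast cells given the garlic organosulfur compound DATS (diallyl trisulfide). The members were the 47 genes of a named list, found by gene symbol among 58735 genes. By role, 5 encode autophagy cargo receptors and 21 encode autophagosome machinery. A further 2 are transcription factors of lysosomal genes, and 19 encode lysosomal enzymes, membrane proteins, proton pump subunits or tethering subunits. In SK-BR-3 cells given 20 µM DATS for 16 h, 13 members rose and 1 fell relative to the DMSO vehicle (0.07%). Of all tested genes, 11.3% rose and 6.87% fell there. In MCF-10A cells given the same dose, 7 members rose and 0 fell, where 4.17% of all tested genes rose and 2.11% fell. The cargo receptor genes SQSTM1 and OPTN, the ATG8 family gene MAP1LC3B, the phagophore gene WIPI1 and the transcription factor gene TFE3 rose in both lines. Of all tested genes, 1.1% did so. Each MCF-10A rise was lost in at least 2 of 12 fits that left out 1 library, that of TFE3 in 10.

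SK-BR-3 was derived from a breast cancer and carries an amplified ERBB2 gene. MCF-10A comes from breast epithelium and does not form tumours. Both were grown as plain cultures with no engineered change named in the labels, and 1 line stands for each kind of cell. The 4 groups were SK-BR-3 with DATS, SK-BR-3 with DMSO, MCF-10A with DATS and MCF-10A with DMSO, each with 3 libraries from independent preparations. Values are the authors' FPKM, which divide reads by the merged exon length of a gene and by an effective library size. Comparisons of level between genes therefore depend on that annotated length and on how reads in overlapping exons were counted.

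Libraries held 15295858 to 18408279 reads in genes. Of the markers of each line, all 5 basal genes were lower and 4 of 5 luminal genes higher in SK-BR-3 with DMSO. The exception was ESRP1, an epithelial splicing regulator, with 7.01 FPKM in SK-BR-3 and 12.1 FPKM in MCF-10A (-0.70, adjusted p = 0.000237). Summed over 5 basal genes (KRT5, KRT14, KRT17, TP63 and ITGB4), SK-BR-3 libraries held 50.1 to 63.0 FPKM with DATS and 25.7 to 29.02 FPKM with DMSO, and MCF-10A libraries 3825 to 4608 FPKM with DATS and 3905 to 4792 FPKM with DMSO. Summed over ERBB2, GRB7, KRT19, KRT18 and ESRP1, SK-BR-3 libraries held 3942 to 4936 FPKM with DATS and 3143 to 4614 FPKM with DMSO, and MCF-10A libraries 120 to 138 FPKM with DATS and 82.2 to 93.2 FPKM with DMSO. Of 6 leukocyte and 4 endothelial genes, only CSF1R and CDH5 exceeded 1 FPKM in SK-BR-3. The leukocyte list summed there to 22.6 to 46.5 FPKM with DATS and 11.3 to 31.6 FPKM with DMSO, and the endothelial list to 21.4 to 30.1 FPKM with DATS and 9.83 to 15.2 FPKM with DMSO. The defining genes were near 0, PTPRC reaching at most 0.0202 FPKM and PECAM1 at most 0.0172 FPKM in SK-BR-3. In MCF-10A the leukocyte list summed to 7.36 to 9.09 FPKM with DATS and 5.65 to 6.53 FPKM with DMSO, mostly CD14. A list of 5 fibroblast genes stayed under 10 FPKM in every library. The part of these genes in the results was not tested. In these bulk samples, fewer cells of a type and less RNA per cell cannot be told apart.

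Macroautophagy encloses cytoplasm in a double membrane, the phagophore, which closes into an autophagosome and fuses with a lysosome. Cargo receptors tie ubiquitinated proteins or organelles to the ATG8 proteins (the LC3 and GABARAP families) that are attached to that membrane. In the lysosome an ATP-driven proton pump, the V-ATPase, acidifies the lumen in which hydrolases work. TFEB and TFE3 are transcription factors that bind E-box elements near many of these genes, and the SQSTM1 gene is also a known target of the oxidative stress factor NRF2.

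Changes are log2 fold changes with their standard error (SE), estimated by limma on log2(FPKM + 1), which shrinks those of genes with low FPKM. A gene was tested if it had at least 1 FPKM in at least 3 libraries, which 13194 genes and 46 of the 47 members did. A member was called, and is said to have risen or fallen, at a Benjamini-Hochberg adjusted p under 0.05 over all tested genes. Whether groups of libraries overlapped is given as a description, and the share of all genes without overlap was not counted. In SK-BR-3, 13 of 46 members were called higher with DATS, against 11.3% of all tested genes, and 1 of 46 lower, against 6.87%. In MCF-10A, 7 of 46 were called higher, where 4.17% of all tested genes were, and 0 of 46 were called lower, where 2.11% of all were. The members' median log2 change was 0.20 in SK-BR-3 and 0.21 in MCF-10A, and that of all tested genes was 0.03 and 0.02. Of the calls among all genes in MCF-10A, 66.3% were higher with the deposited scaling, against 50.8% after quantile normalization, 55.3% after median centring and 51.2% with edgeR. With DESeq2 the share was 62.2%.

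Pairing libraries by replicate number, which the labels do not tie to a shared preparation, changed the counts. With the replicate number as a block, 20 members were called higher in SK-BR-3, where 17.1% of all tested genes were, and 1 lower. In MCF-10A, 18 members were then called higher, where 10.7% of all were. The share of reads from ribosomal RNA genes moved with treatment in both lines. In SK-BR-3 it was 0.427%, 0.557% and 0.454% with DATS and 0.344%, 0.346% and 0.410% with DMSO. In MCF-10A it was 0.365%, 0.386% and 0.261% with DATS and 0.249%, 0.244% and 0.258% with DMSO. Its part in the results was not tested.

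**Figure D1:**
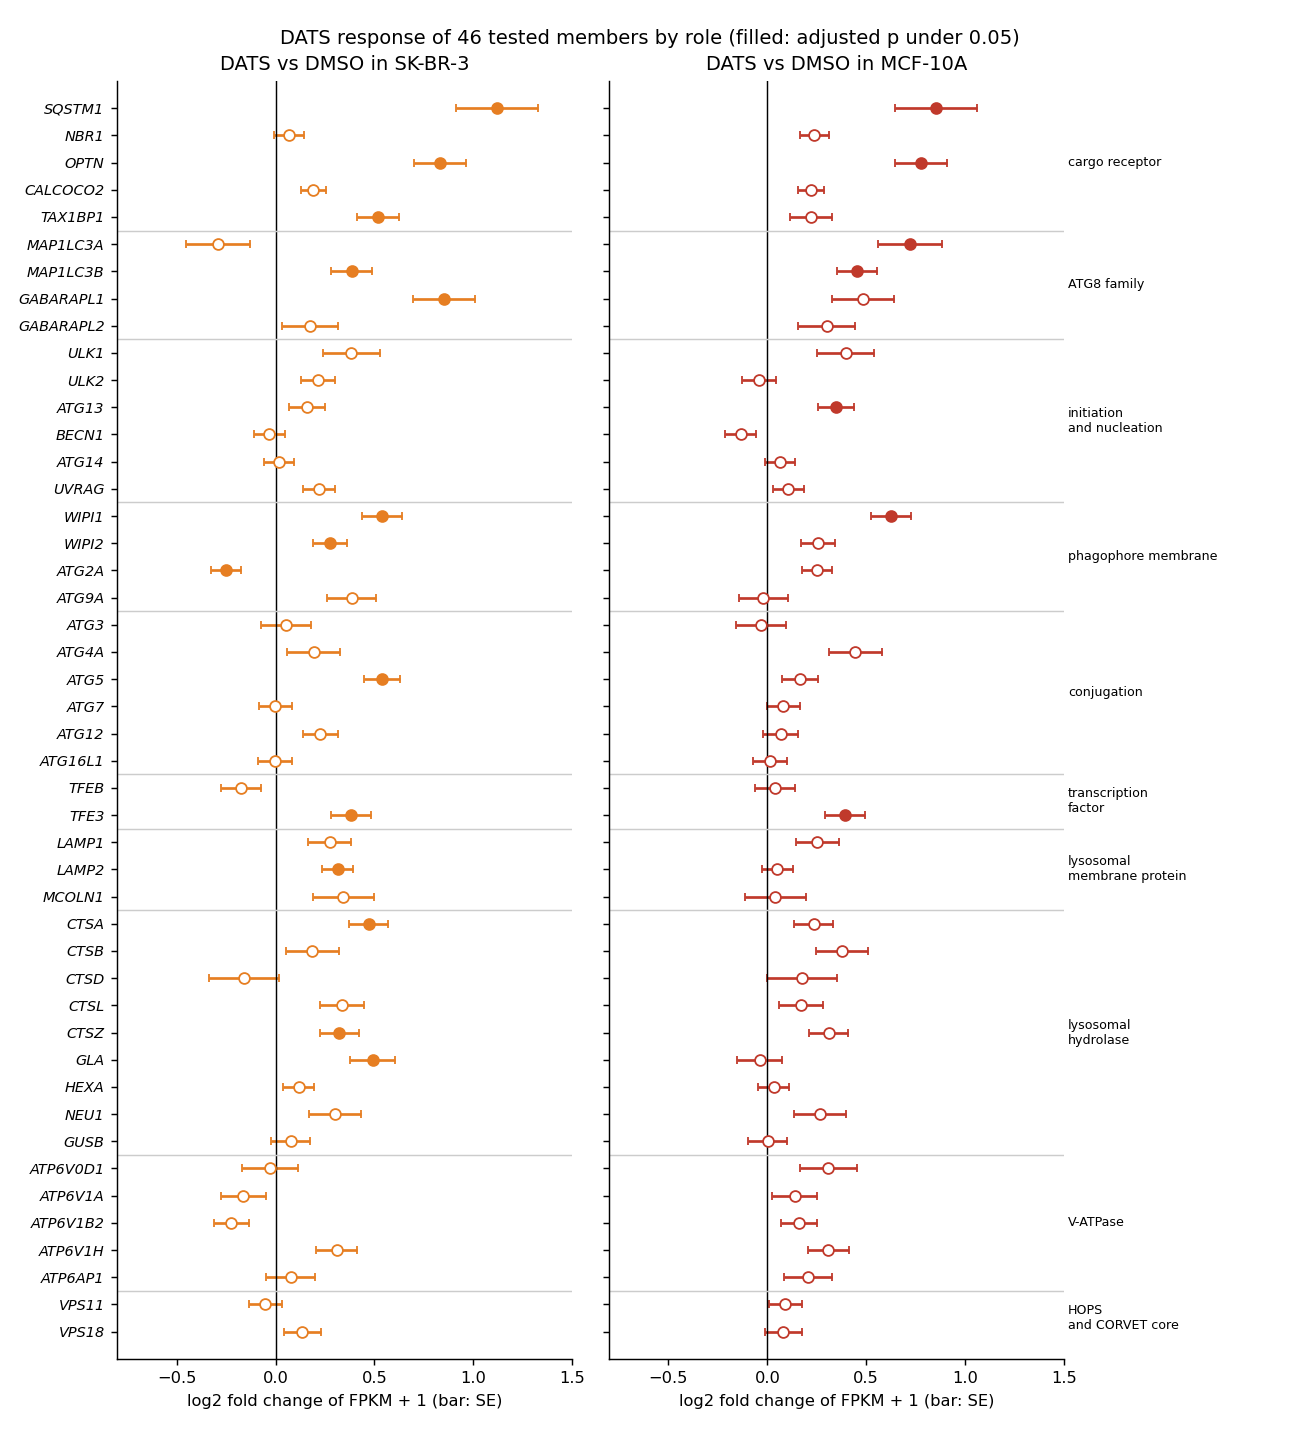
Log2 fold changes of FPKM + 1, DATS over DMSO, for the 46 tested members grouped by role, in SK-BR-3 (left) and MCF-10A (right). Points are limma estimates, bars are SE, and filled points have an adjusted p under 0.05; SQSTM1 has the largest change in either line, 1.12 in SK-BR-3 and 0.85 in MCF-10A.

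All 5 cargo receptor genes had positive changes in both lines, and their median was 0.52 in SK-BR-3 and 0.24 in MCF-10A. SQSTM1 encodes p62, which binds ubiquitin and LC3 and is itself degraded by autophagy (chromosome 5, 179806398 to 179838078, GRCh38). In SK-BR-3 it measured 151, 88.0 and 88.2 FPKM with DATS, against 63.9, 42.1 and 41.2 FPKM with DMSO. Replicate 1 was the highest in both SK-BR-3 groups, the groups did not overlap, and the change was 1.12 ± 0.21 (SE, adjusted p = 0.0054). In MCF-10A it measured 42.6, 48.1 and 46.4 FPKM with DATS, against 22.9, 24.5 and 27.2 FPKM with DMSO. Every DATS library lay above every DMSO library (0.85 ± 0.21, adjusted p = 0.0369). Taken by preparation, the SQSTM1 change was 1.23, 1.05 and 1.08 in SK-BR-3 and 0.87, 0.94 and 0.75 in MCF-10A. Over 22.04% of its exon length SQSTM1 overlaps MRNIP and MGAT4B on the opposite strand, and whether the counting used strand is not given in the sources used here.

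OPTN encodes optineurin, a receptor for damaged mitochondria and for bacteria. Its SK-BR-3 values were 20.8, 13.8 and 16.6 FPKM with DATS, against 9.80, 8.40 and 8.97 FPKM with DMSO (0.83 ± 0.13, adjusted p = 0.00245). In MCF-10A they were 25.3, 26.7 and 28.9 FPKM with DATS, against 14.0, 14.6 and 17.6 FPKM with DMSO (0.78 ± 0.13, adjusted p = 0.011). OPTN thus rose without overlap of the groups in either line. TAX1BP1, a receptor for ubiquitinated aggregates, had 36.0, 35.9 and 43.1 FPKM with DATS in SK-BR-3, against 25.5, 26.9 and 26.6 FPKM with DMSO, and rose there (0.52 ± 0.11, adjusted p = 0.00865). In MCF-10A it averaged 13.1 ± 1.78 FPKM with DATS and 11.1 ± 1.13 FPKM with DMSO (SD, n = 3 each), groups that overlapped (0.22 ± 0.11, adjusted p = 0.232). The receptor genes NBR1 and CALCOCO2, the second of which encodes NDP52, had changes of 0.07 and 0.19 in SK-BR-3 and of 0.24 and 0.22 in MCF-10A, none of them called. With the replicate block NBR1 rose in MCF-10A (adjusted p = 0.0354).

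**Figure D2:**
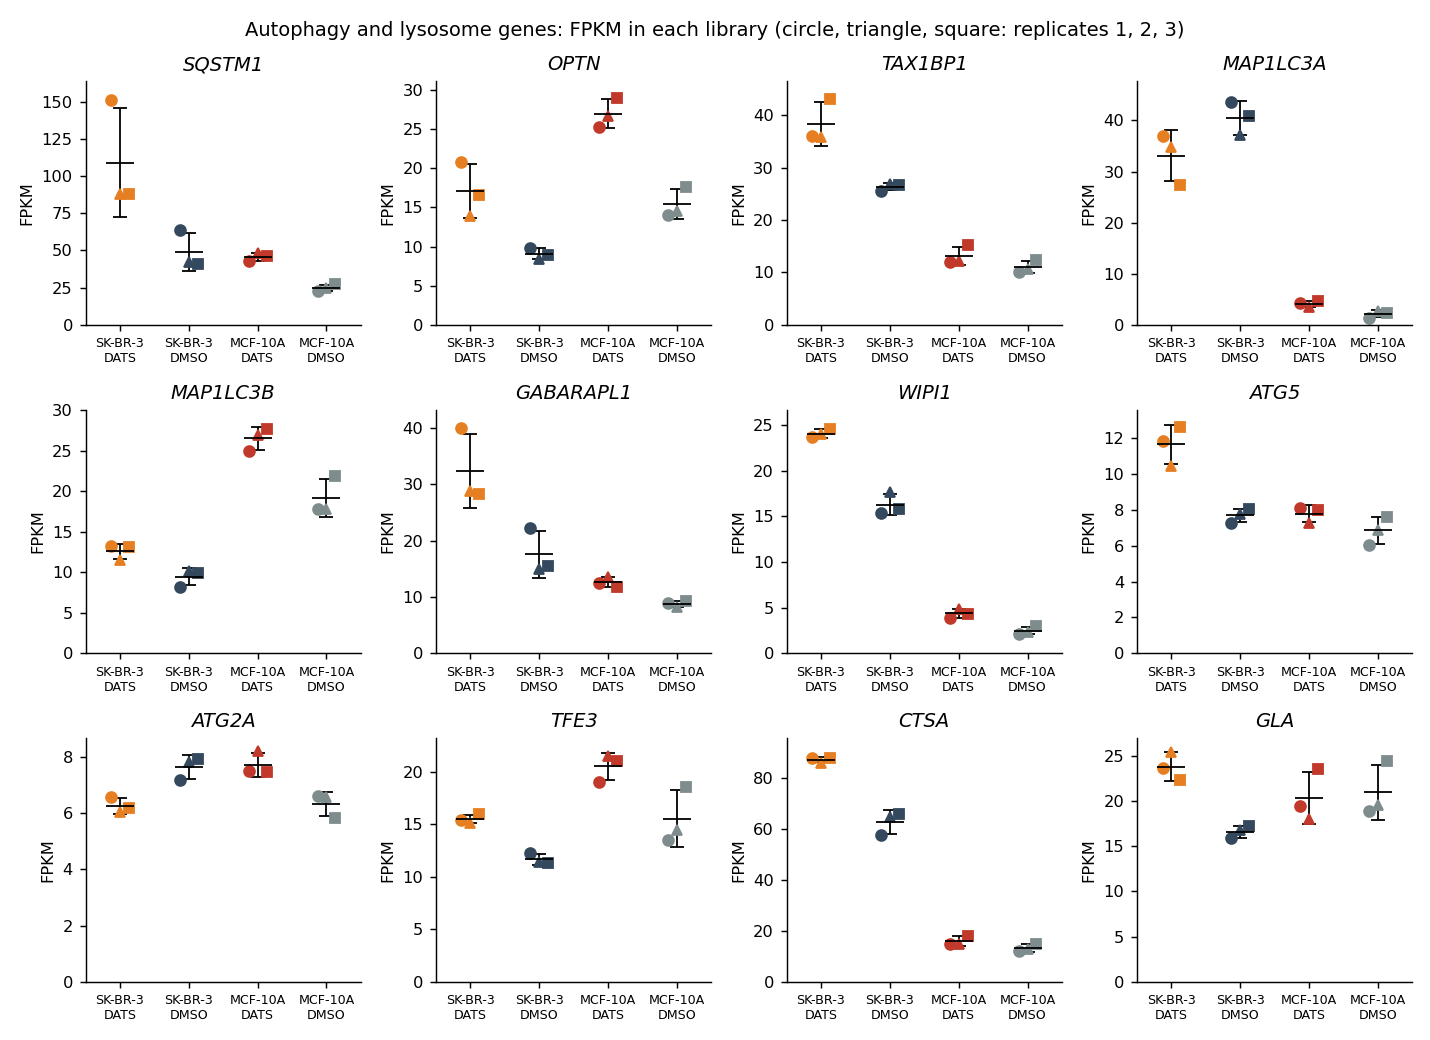
FPKM of 12 members in each library (vertical axes, starting at 0), by cell line and treatment. Symbols are the 3 replicates, horizontal marks the means and bars the SD; SQSTM1 and OPTN lie higher with DATS than with DMSO in every library of both lines, while MAP1LC3A and ATG2A are lower with DATS in SK-BR-3 and higher in MCF-10A.

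The ATG8 genes did not move as 1 family. MAP1LC3B encodes LC3B, the usual marker of autophagosomes (chromosome 16, 87383995 to 87404779). In SK-BR-3 it had 13.2, 11.5 and 13.1 FPKM with DATS, against 8.22, 10.2 and 9.86 FPKM with DMSO (0.38 ± 0.10, adjusted p = 0.0245). In MCF-10A the values were 24.97, 26.9 and 27.7 FPKM with DATS, against 17.8, 17.8 and 21.9 FPKM with DMSO (0.45 ± 0.10, adjusted p = 0.0281). MAP1LC3B was thus called higher in both lines, and neither pair of groups overlapped. Of the 12 fits without 1 library, 4 lost the call in SK-BR-3 and 5 lost it in MCF-10A. How reads shared with its near-identical copy MAP1LC3B2 were counted is not given in the sources used here.

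MAP1LC3A, which encodes the related LC3A, went opposite ways (chromosome 20, 34546854 to 34560345). In SK-BR-3, where it was far more abundant, it had 36.9, 34.9 and 27.4 FPKM with DATS, against 43.6, 37.1 and 40.8 FPKM with DMSO. The DATS libraries lay below the DMSO libraries, but the change was not called (-0.29 ± 0.16, adjusted p = 0.239). In MCF-10A it had 4.25, 3.49 and 4.57 FPKM with DATS, against 1.38, 2.73 and 2.29 FPKM with DMSO, and rose (0.72 ± 0.16, adjusted p = 0.0275) on 106 to 133 reads per library with DATS and 43 to 95 with DMSO. The difference between the 2 responses was called (-1.01 ± 0.23, adjusted p = 0.035). It was not called in 8 of the 12 fits that left out 1 library, the adjusted p ranging from 0.0313 to 0.0811.

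GABARAPL1 had 40.0, 28.8 and 28.3 FPKM with DATS in SK-BR-3, against 22.3, 14.9 and 15.4 FPKM with DMSO, and rose (0.85 ± 0.16, adjusted p = 0.00504). In MCF-10A it averaged 12.6 ± 0.857 FPKM with DATS and 8.74 ± 0.572 FPKM with DMSO (SD, n = 3 each), without overlap but not called (0.48 ± 0.16, adjusted p = 0.0889). With the replicate block GABARAPL1 rose in MCF-10A too (adjusted p = 0.0104). GABARAPL2 was not called, its estimates being 0.18 in SK-BR-3 and 0.30 in MCF-10A. GABARAP was the member that went untested, with 6 to 23 reads in any library. Of its exon length, 30.49% is shared with AC120057.2 on the same strand, a gene with 0 reads in all 12 libraries, and the part of that overlap in the low count was not tested.

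Among the 6 initiation and nucleation genes, the kinase and lipid kinase complexes that start a phagophore, 0 were called in SK-BR-3 and 1 in MCF-10A. ATG13, the adaptor subunit of the ULK1 kinase complex, averaged 10.5 ± 0.956 FPKM with DATS and 9.29 ± 0.586 FPKM with DMSO in SK-BR-3 (0.16 ± 0.09, adjusted p = 0.256). In MCF-10A ATG13 had 10.9, 11.7 and 13.1 FPKM with DATS, against 8.54, 8.84 and 10.0 FPKM with DMSO (0.35 ± 0.09, adjusted p = 0.0481). The groups did not overlap, but the adjusted p lay just under the threshold, and 9 of the 12 fits without 1 library lost the call. ULK1 itself had estimates of 0.38 ± 0.14 in SK-BR-3 (adjusted p = 0.0868) and 0.40 ± 0.14 in MCF-10A (adjusted p = 0.121). With the replicate block ULK1 rose in both lines (adjusted p = 0.00753 in SK-BR-3 and 0.0134 in MCF-10A). The changes of ULK2, BECN1, ATG14 and UVRAG ran between -0.13 and 0.22, with no call in any of these fits.

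The phagophore membrane genes held both directions. WIPI1 encodes a protein that binds phosphatidylinositol 3-phosphate on the forming membrane (chromosome 17, 68420948 to 68457513). In SK-BR-3 it had 23.7, 24.0 and 24.5 FPKM with DATS, against 15.4, 17.6 and 15.8 FPKM with DMSO (0.54 ± 0.10, adjusted p = 0.00518). The MCF-10A values were 3.86, 4.88 and 4.35 FPKM with DATS, against 2.15, 2.34 and 2.96 FPKM with DMSO (0.62 ± 0.10, adjusted p = 0.00889). It rose in both lines with no overlap, although its level differed between them, and ARSG and AC007780.1 overlap 28.07% of its exon length on the other strand. WIPI2, the paralog that recruits ATG16L1, had 19.3, 17.9 and 18.6 FPKM with DATS in SK-BR-3, against 14.0, 15.3 and 16.4 FPKM with DMSO (0.28 ± 0.09, adjusted p = 0.0497). That call was lost in 10 of the 12 fits without 1 library. In MCF-10A WIPI2 averaged 11.2 ± 0.869 FPKM with DATS and 9.19 ± 0.918 FPKM with DMSO (0.26 ± 0.09, adjusted p = 0.104, and 0.0445 with the replicate block).

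ATG2A, a lipid transfer protein that feeds the growing phagophore (chromosome 11, 64894546 to 64917248), was the single member to fall. In SK-BR-3 it had 6.59, 6.03 and 6.18 FPKM with DATS, against 7.17, 7.83 and 7.95 FPKM with DMSO (-0.25 ± 0.07, adjusted p = 0.0366). In MCF-10A it had 7.50, 8.23 and 7.48 FPKM with DATS, against 6.60, 6.59 and 5.85 FPKM with DMSO, the reverse order (0.25 ± 0.07, adjusted p = 0.0651, and 0.0489 with the replicate block). The responses (SK-BR-3 minus MCF-10A) differed by -0.50 ± 0.10 (adjusted p = 0.0274), and the adjusted p reached 0.081 when single libraries were left out, with 7 of 12 fits losing the call. The fall in SK-BR-3 was likewise not called in 7 of the 12 fits, its adjusted p reaching 0.122. ATG9A, the membrane protein of seed vesicles, had estimates of 0.39 ± 0.12 in SK-BR-3 (adjusted p = 0.0503, and 0.0182 with the replicate block) and -0.02 in MCF-10A. It shares 38.8% of its exon length with AC068946.2 on the same strand.

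The 6 conjugation genes, which attach ATG8 proteins to lipid, included 1 that rose in SK-BR-3 and 0 in MCF-10A. ATG5, the partner of ATG12 in the conjugate that promotes this step, had 11.9, 10.5 and 12.6 FPKM with DATS in SK-BR-3, against 7.28, 7.74 and 8.03 FPKM with DMSO (0.54 ± 0.09, adjusted p = 0.00346). In MCF-10A it averaged 7.78 ± 0.458 FPKM with DATS and 6.84 ± 0.773 FPKM with DMSO, with overlap (0.17 ± 0.09, adjusted p = 0.303). The protease gene ATG4A had estimates of 0.19 ± 0.13 in SK-BR-3 and 0.44 ± 0.13 in MCF-10A (adjusted p = 0.0702, and 0.00922 with the replicate block). ATG3, ATG7, ATG12 and ATG16L1 ran between -0.03 and 0.23 in either line and were not called. Over the whole autophagosome machinery, 5 of 20 tested genes rose in SK-BR-3 (25%, against 11.3% of all tested genes) and 1 fell (5%, against 6.87%). In MCF-10A 4 of the 20 rose (20%, against 4.17%).

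Of the transcription factor genes, TFE3 rose and TFEB was not called. TFE3 had 15.4, 15.1 and 15.9 FPKM with DATS in SK-BR-3, against 12.3, 11.5 and 11.3 FPKM with DMSO (0.38 ± 0.10, adjusted p = 0.0252). In MCF-10A it had 19.1, 21.5 and 21.0 FPKM with DATS, against 13.5, 14.5 and 18.6 FPKM with DMSO (0.39 ± 0.10, adjusted p = 0.0454). The groups did not overlap in either line, yet the MCF-10A call was lost in 10 of 12 fits without 1 library. In SK-BR-3 TFEB had 4.90, 4.22 and 4.08 FPKM with DATS and 5.92, 5.30 and 4.17 FPKM with DMSO, groups that overlapped (-0.18 ± 0.10, adjusted p = 0.26). In MCF-10A TFEB had 3.38, 3.43 and 3.24 FPKM with DATS and 3.25, 3.17 and 3.29 FPKM with DMSO, also with overlap (0.04 ± 0.10, adjusted p = 0.877). Both proteins are controlled largely by phosphorylation and nuclear entry, which RNA levels do not measure.

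Of the 19 lysosomal members, 4 rose in SK-BR-3 (21.1%, median 0.19), against 11.3% of all tested genes, and 9 did with the replicate block (47.4%, against 17.1%). In MCF-10A limma called 0 of 19 (median 0.17), against 4.17% of all tested genes. At an unadjusted p under 0.05, 5 of these 19 stood higher there, as did 14.5% of all tested genes. With the replicate block 5 of 19 rose (26.3%, against 10.7%), namely CTSA, CTSB, CTSZ, ATP6V1H and ATP6AP1. The difference between the responses of the lines was not called for any of these 19 members without the block.

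LAMP2, a glycoprotein of the lysosomal membrane needed for fusion and for chaperone-mediated autophagy, had 39.1, 34.2 and 41.2 FPKM with DATS in SK-BR-3, against 29.03, 30.5 and 31.7 FPKM with DMSO (0.32 ± 0.08, adjusted p = 0.0188). In MCF-10A it averaged 35.7 ± 1.43 FPKM with DATS and 34.5 ± 1.09 FPKM with DMSO (0.05 ± 0.08, adjusted p = 0.761). LAMP1, the other major membrane glycoprotein, had 89.2, 84.3 and 95.5 FPKM with DATS in SK-BR-3, against 65.6, 77.2 and 79.8 FPKM with DMSO. Its groups did not overlap, and it was called only with the replicate block (0.27 ± 0.11, adjusted p = 0.104, and 0.0266 with the block). In MCF-10A LAMP1 had 57.6, 57.8 and 66.8 FPKM with DATS, against 46.9, 47.7 and 58.4 FPKM with DMSO, with overlap (0.25 ± 0.11, adjusted p = 0.187). The calcium channel gene MCOLN1 had estimates of 0.34 ± 0.15 in SK-BR-3 (adjusted p = 0.146, and 0.0315 with the block) and 0.04 ± 0.15 in MCF-10A.

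Of the 9 hydrolase genes, CTSA, CTSZ and GLA rose in SK-BR-3. CTSA encodes protective protein/cathepsin A, a carboxypeptidase that stabilises neuraminidase and beta-galactosidase (chromosome 20, 45890144 to 45898820). It had 87.6, 85.9 and 87.8 FPKM with DATS in SK-BR-3, against 57.4, 64.7 and 65.9 FPKM with DMSO (0.47 ± 0.10, adjusted p = 0.0103). In MCF-10A it averaged 15.8 ± 1.93 FPKM with DATS and 13.3 ± 1.55 FPKM with DMSO, with overlap (0.23 ± 0.10, adjusted p = 0.186, and 0.0445 with the block). Genes on the opposite strand, among them NEURL2 and PLTP, cover 28.48% of its exon length.

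GLA encodes alpha-galactosidase A, the enzyme lacking in Fabry disease. In SK-BR-3 it had 23.6, 25.5 and 22.3 FPKM with DATS, against 15.9, 16.8 and 17.2 FPKM with DMSO (0.49 ± 0.11, adjusted p = 0.0139). In MCF-10A it had 19.5, 18.0 and 23.5 FPKM with DATS, against 18.9, 19.5 and 24.5 FPKM with DMSO, nearly the same range (-0.04 ± 0.11, adjusted p = 0.885). The responses differed by 0.53 ± 0.16 (adjusted p = 0.0861), a difference that was called with the replicate block (adjusted p = 0.0182). CTSZ, a carboxypeptidase, had 203, 185 and 180 FPKM with DATS in SK-BR-3, against 157, 151 and 145 FPKM with DMSO (0.32 ± 0.10, adjusted p = 0.0459). Its MCF-10A means were 138 ± 11.3 FPKM with DATS and 112 ± 14.3 FPKM with DMSO (0.31 ± 0.10, adjusted p = 0.0901, and 0.0289 with the block), so the estimates in the 2 lines were close. The SK-BR-3 call of CTSZ was lost in 8 of 12 fits without 1 library.

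CTSD, the aspartic protease cathepsin D and the most abundant member in SK-BR-3, did not pass the test. It had 304, 334 and 248 FPKM with DATS in SK-BR-3, against 255, 388 and 356 FPKM with DMSO, with wide overlap (-0.16 ± 0.18, adjusted p = 0.583). MCF-10A libraries had 70.6, 67.1 and 79.3 FPKM with DATS and 62.3, 53.2 and 78.2 FPKM with DMSO (0.18 ± 0.18, adjusted p = 0.604). CTSD shares 41.71% of its exon length with AC068580.4 on the same strand. The changes of CTSB, CTSL, HEXA, NEU1 and GUSB ran between 0.00 and 0.38 in the 2 lines. With the block, CTSL (adjusted p = 0.0122) and NEU1 (adjusted p = 0.0449) rose in SK-BR-3 and CTSB (adjusted p = 0.0128) in MCF-10A.

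The V-ATPase subunits had a median of -0.03 in SK-BR-3 and 0.21 in MCF-10A, with 0 of 5 called in either line. ATP6V1H was called with the block in both (adjusted p = 0.0158 in SK-BR-3 and 0.0267 in MCF-10A), and ATP6AP1 in MCF-10A (adjusted p = 0.0471). The tethering subunits VPS11 and VPS18, which bring membranes to the lysosome, had estimates of -0.05 to 0.14 and were not called. A further 15 V-ATPase and tethering genes outside the members gave 3 higher calls in SK-BR-3 (20%, against 11.3% of all tested genes). These were the pump subunits ATP6V1E1 (0.48), ATP6V0A1 (0.42) and ATP6V1C1 (0.37). In MCF-10A the 15 gave 0 calls, where 4.17% of all tested genes were called higher.

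The first 250 bases before the transcription start were searched on both strands for 3 motifs. These were the E-box CACGTG, the longer core of the CLEAR element that TFEB binds, TCACGTGA, which contains the E-box, and the core of the antioxidant response element that NRF2 binds, TGACNNNGC. RefSeq promoters (GRCh38.p14) were matched for 38 of the 47 members. The CLEAR core was found in 5 of 38 members (13.16%: ATP6V0D1, CTSA, LAMP1, MCOLN1 and VPS11), against 1.036% of 27305 genes, a gene counting once if any of its promoter entries matched. The E-box was found in 9 of 38 (23.68%), against 7.728%, and the antioxidant core in 9 of 38 (23.68%), against 13.22%. Shown are 3 lysosomal promoters with the CLEAR core, among them CTSA, which rose in SK-BR-3, and the MAP1LC3B promoter with the antioxidant core. Each is written 5′ to 3′ on the gene's strand and ends at the last base before the start, with every motif match in capitals.
CTSA chr20:45891085-45891334 (+): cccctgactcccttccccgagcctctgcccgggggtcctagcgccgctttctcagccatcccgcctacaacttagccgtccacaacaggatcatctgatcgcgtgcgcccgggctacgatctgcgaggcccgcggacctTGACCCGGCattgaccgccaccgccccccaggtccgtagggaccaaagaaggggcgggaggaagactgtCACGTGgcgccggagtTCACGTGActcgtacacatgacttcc
LAMP1 chr13:113296989-113297238 (+): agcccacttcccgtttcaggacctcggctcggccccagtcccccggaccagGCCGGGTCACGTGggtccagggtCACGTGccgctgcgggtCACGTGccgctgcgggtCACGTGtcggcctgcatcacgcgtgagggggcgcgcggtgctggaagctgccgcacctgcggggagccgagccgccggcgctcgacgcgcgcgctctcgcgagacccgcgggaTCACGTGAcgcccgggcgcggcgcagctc
MCOLN1 chr19:7522374-7522623 (+): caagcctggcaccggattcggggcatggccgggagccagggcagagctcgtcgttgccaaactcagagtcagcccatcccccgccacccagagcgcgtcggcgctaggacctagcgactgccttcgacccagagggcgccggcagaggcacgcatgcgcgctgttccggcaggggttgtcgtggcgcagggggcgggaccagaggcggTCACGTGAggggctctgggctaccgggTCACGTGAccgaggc
MAP1LC3B chr16:87392086-87392335 (+): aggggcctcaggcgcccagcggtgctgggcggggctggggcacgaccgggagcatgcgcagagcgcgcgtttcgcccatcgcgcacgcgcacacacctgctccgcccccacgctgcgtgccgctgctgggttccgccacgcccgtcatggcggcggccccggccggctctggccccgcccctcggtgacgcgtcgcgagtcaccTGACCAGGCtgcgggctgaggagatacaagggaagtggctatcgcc

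LAMP1 held 5 E-boxes in this window, 4 of them in a row far from the start and 1 inside the CLEAR core, and the first overlaps an antioxidant core read on the other strand. MCOLN1 held 2 CLEAR cores, and CTSA held 2 E-boxes, the one nearer the start lying in a CLEAR core. The single match of MAP1LC3B began 46 bases before the start. Among matched and tested members, 1 of the 5 with the CLEAR core rose in SK-BR-3, against 11 of the 32 without it, and their median changes were 0.27 and 0.22. In MCF-10A, 0 of those 5 and 6 of those 32 rose, with medians of 0.23 and 0.22. For the antioxidant core, 3 of 9 members with it and 9 of 28 without it rose in SK-BR-3, and 1 of 9 and 5 of 28 in MCF-10A. All 3 RefSeq promoter entries of SQSTM1 lacked these motifs in this window, which says nothing of sites elsewhere.

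Set side by side, 5 members rose in both lines, 8 were called higher in SK-BR-3 alone, and ATG13 and MAP1LC3A were called higher in MCF-10A alone. Of all tested genes, 1.1% were called higher in both lines, 10.2% in SK-BR-3 alone and 3.07% in MCF-10A alone. The 8 were ATG5, CTSA, CTSZ, GABARAPL1, GLA, LAMP2, TAX1BP1 and WIPI2. Across the 46 members, 31 (67.4%) had positive changes in both lines, against 35.6% of all tested genes. The Pearson correlation of the 2 responses across these genes was 0.462, against 0.296 over all 13194 genes. These are descriptions, since genes measured in the same 6 libraries of a line are not independent replicates. By class the median in SK-BR-3 was 0.52 for cargo receptors, 0.20 for autophagosome machinery and 0.19 for lysosomal genes. The MCF-10A medians were 0.24, 0.21 and 0.17 in the same order. Taken by preparation, the median over all 46 members was 0.30, 0.11 and 0.21 in SK-BR-3, while MCF-10A gave 0.20, 0.24 and 0.18.

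**Figure D3:**
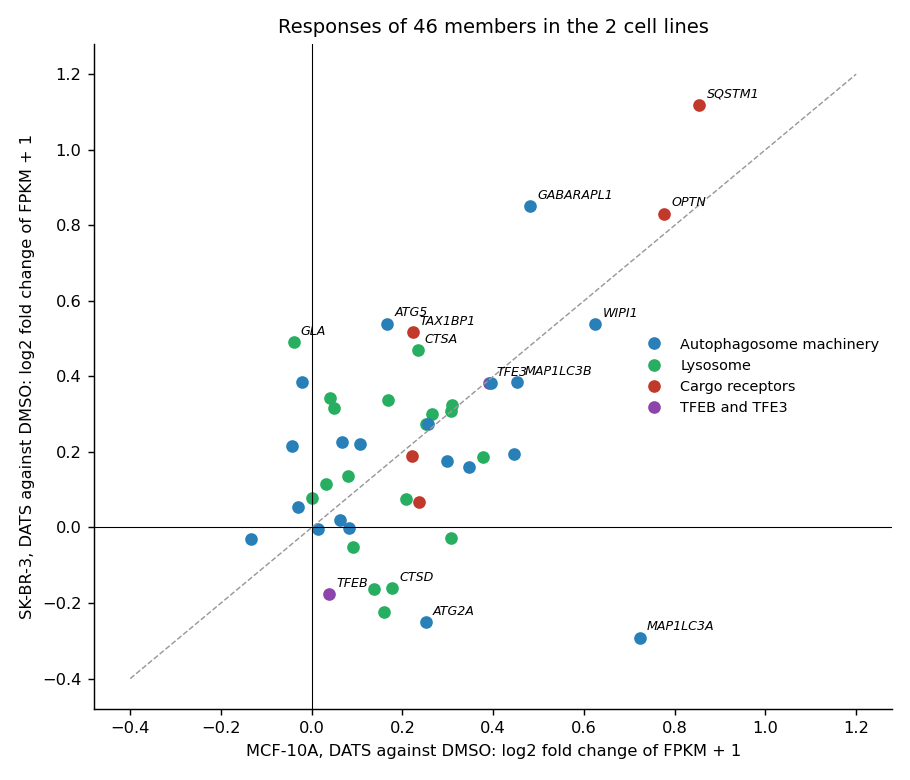
Log2 fold changes of FPKM + 1, DATS over DMSO, of the 46 tested members in SK-BR-3 (vertical) and MCF-10A (horizontal), coloured by class, with a dashed line of equal change. SQSTM1 and OPTN lie farthest to the upper right, 31 members lie above 0 in both lines, and MAP1LC3A (-0.29 and 0.72) and ATG2A (-0.25 and 0.25) lie far below the line.

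The difference of the responses (SK-BR-3 minus MCF-10A) was called lower for 2 of 46 members, MAP1LC3A and ATG2A, where 1.81% of all tested genes were, and higher for 0 of 46, where 2.48% were. In either direction 2 of 46 members were called, close to the 4.29% of all tested genes. Of all genes called for the difference 57.8% were higher, against 77.1% with edgeR. The share was 58.7% after quantile normalization, 58.1% after median centring and 56.3% with DESeq2. For the 5 members that rose in both lines it was not called: 0.26 ± 0.29 for SQSTM1, 0.05 ± 0.19 for OPTN, -0.07 ± 0.14 for MAP1LC3B, -0.09 ± 0.14 for WIPI1 and -0.01 ± 0.14 for TFE3 (SE, adjusted p from 0.651 to 0.98). With the replicate block the SQSTM1 difference had a smaller error, 0.26 ± 0.09, and was not called (adjusted p = 0.107). A p that misses the threshold does not show that the lines responded alike. The difference was called for 0 members without MCF-10A DATS replicate 1 or 2, MCF-10A DMSO replicate 1, SK-BR-3 DATS replicate 3, or SK-BR-3 DMSO replicate 2 or 3.

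How firmly the calls stood differed between the lines. In SK-BR-3, SQSTM1, OPTN, TAX1BP1, GABARAPL1, WIPI1, ATG5, CTSA and GLA were called in all 12 fits that left out 1 library. Of these, SQSTM1 and GABARAPL1 were not called in a limma fit of SK-BR-3 alone (adjusted p = 0.0693 and 0.0648). CTSA and GLA were not called without replicate 1 of both SK-BR-3 groups (adjusted p = 0.0516 and 0.0621). Without SK-BR-3 DATS replicate 3, 8 members were called in that line, and without DMSO replicate 2 or 3, 9 were. Of all genes, 767, 853 and 789 were called higher in these fits, in the same order, against 1485 with every library. In MCF-10A each of the 7 calls was lost in at least 2 of the 12 fits. There 0 members were called without MCF-10A DATS replicate 2 or DMSO replicate 1, and 2 without DATS replicate 1, DATS replicate 3 or DMSO replicate 2. Without DMSO replicate 3, 15 were. The calls among all genes moved the same way, with 47 higher without DATS replicate 2, 59 without DMSO replicate 1 and 1294 without DMSO replicate 3, against 550 with every library. A limma fit restricted to MCF-10A called 0 members and 0 of all 13194 genes. Its lowest adjusted p among members was 0.0514, and 17 of 46 stood higher at an unadjusted p under 0.05, against 15% of all genes. With the low-value filter applied within that line, 6 members and 387 genes were called higher. The count tools, run on recovered reads with every library, called 5 members in MCF-10A with edgeR and 12 with DESeq2. Of all genes, they called 375 and 906 higher there. The authors' deposited comparison lists 24 members at an unadjusted p under 0.05 in SK-BR-3 and 16 in MCF-10A. Its share of all genes is not given here. In SK-BR-3 those listed include ATG2A, ATP6V1B2 and MAP1LC3A, which were lower with DATS. Its adjusted p for SQSTM1 is 0.0169 in SK-BR-3 and 1.59e-12 in MCF-10A. For ATG2A (0.0626), CTSZ (0.0544), LAMP2 (0.0782) and WIPI2 (0.135) in SK-BR-3 and TFE3 in MCF-10A (0.0638) it is over 0.05. For the other members called here it is under 0.05.

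Other genes of the pathway, 95 in 4 lists, of which 94 were tested, gave 21 higher calls in SK-BR-3 (22.3%, against 11.3% of all tested genes) and 1 lower. In MCF-10A they gave 4 higher (4.26%, close to the 4.17% of all) and 0 lower. Their medians were 0.11 in SK-BR-3 and 0.17 in MCF-10A. With the replicate block 30 were higher in SK-BR-3 (31.9%, against 17.1%) and 18 in MCF-10A (19.1%, against 10.7%). The 4 of MCF-10A were FUCA1 (alpha-fucosidase, 0.76 ± 0.09, adjusted p = 0.00318), SMPD1 (acid sphingomyelinase, 0.59), WDR45 (a WIPI family protein, 0.44) and NRBF2 (a subunit of the lipid kinase complex, 0.44). In SK-BR-3, 8 of 30 other lysosomal enzymes and activators rose, among them IDS (iduronate sulfatase, 1.06 ± 0.15, adjusted p = 0.00133) and CTSS (cathepsin S, 0.79). SGSH, a heparan sulfatase, fell by 0.34. Of 19 tested membrane and mTORC1 docking genes, 6 rose there, led by CD63 (0.62), the cholesterol exporter NPC1 (0.53) and OSTM1 (0.47). Of 30 other autophagy genes, 4 rose there (13.3%, close to the share of all genes), among them the mitophagy genes PINK1 (0.49) and BNIP3L (0.47) and the protease ATG4C (0.26).

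FUCA1 had 13.2, 12.4 and 12.9 FPKM with DATS in SK-BR-3, against 12.98, 12.8 and 12.7 FPKM with DMSO. In MCF-10A it had 6.03, 6.24 and 5.80 FPKM with DATS, against 2.604, 3.12 and 3.80 FPKM with DMSO. The difference of the responses was called for 3 of these 94 genes (3.19%, against 4.29% of all tested genes), and for 9 with the replicate block (9.57%, against 9.82%). Without the block these included FUCA1 (-0.76, adjusted p = 0.013) and, in the other direction, the sulfatase gene ARSB (0.61, adjusted p = 0.0322).

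Without DATS the lines differed widely: between the DMSO groups 37 of 46 members were called, 21 higher in SK-BR-3 and 16 lower. That share has to be read against a background in which 36.6% of all tested genes were called higher and 35.5% lower. MAP1LC3A differed most, with 40.5 ± 3.28 FPKM in SK-BR-3 and 2.13 ± 0.686 FPKM in MCF-10A (SD, n = 3 each; 3.75 ± 0.16, adjusted p = 1.33e-09), and MAP1LC3B went the other way (9.43 and 19.2 FPKM, -0.95 ± 0.10). GABARAPL1 was higher in SK-BR-3 (0.91).

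The cargo receptors were split in DMSO. TAX1BP1 was higher in SK-BR-3 (26.4 and 11.1 FPKM, 1.19 ± 0.11), and NBR1 (5.02 and 14.4 FPKM, -1.35 ± 0.07) and CALCOCO2 (-1.12) were lower. In the initiation group ULK2 (0.591 and 3.75 FPKM, -1.58 ± 0.09) and BECN1 (-1.04) were lower in SK-BR-3 and ULK1 was higher (0.53). Of the phagophore genes WIPI1 (16.3 and 2.48 FPKM, 2.32 ± 0.10) and WIPI2 (0.67) were higher and ATG9A (-0.66) lower, and ATG12 (-0.59) and ATG4A (-0.44) were lower among the conjugation genes. TFEB was higher (0.52) and TFE3 lower (-0.37).

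In the lysosome CTSD averaged 333 ± 69.1 FPKM in SK-BR-3 and 64.5 ± 12.7 FPKM in MCF-10A (2.34 ± 0.18, adjusted p = 2.09e-07). CTSA stood at 62.7 and 13.3 FPKM (2.16 ± 0.10), and CTSB, a cysteine protease, went against them with 19.9 and 73.3 FPKM (-1.83 ± 0.13). The accessory pump subunit ATP6AP1 was higher in SK-BR-3 (65.5 and 16.7 FPKM, 1.92 ± 0.12), while the pump subunits ATP6V1A (-0.84) and ATP6V0D1 (-0.68) were lower. LAMP1 (0.53), VPS11 (0.49) and VPS18 (0.37) were higher. The order of levels per length therefore differed: CTSD, CTSZ (151 FPKM), LAMP1 (74.2 FPKM), ATP6AP1 and CTSA led in SK-BR-3, and CTSZ (112 FPKM), CTSB, CTSD, LAMP1 (51.0 FPKM) and CTSL (41.7 FPKM) in MCF-10A. Among LAMP1, ATP6AP1 and CTSA in SK-BR-3, neighbours in that order differed by less than their summed SDs. The same held among CTSB, CTSD, LAMP1 and CTSL in MCF-10A.

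**Figure D4:**
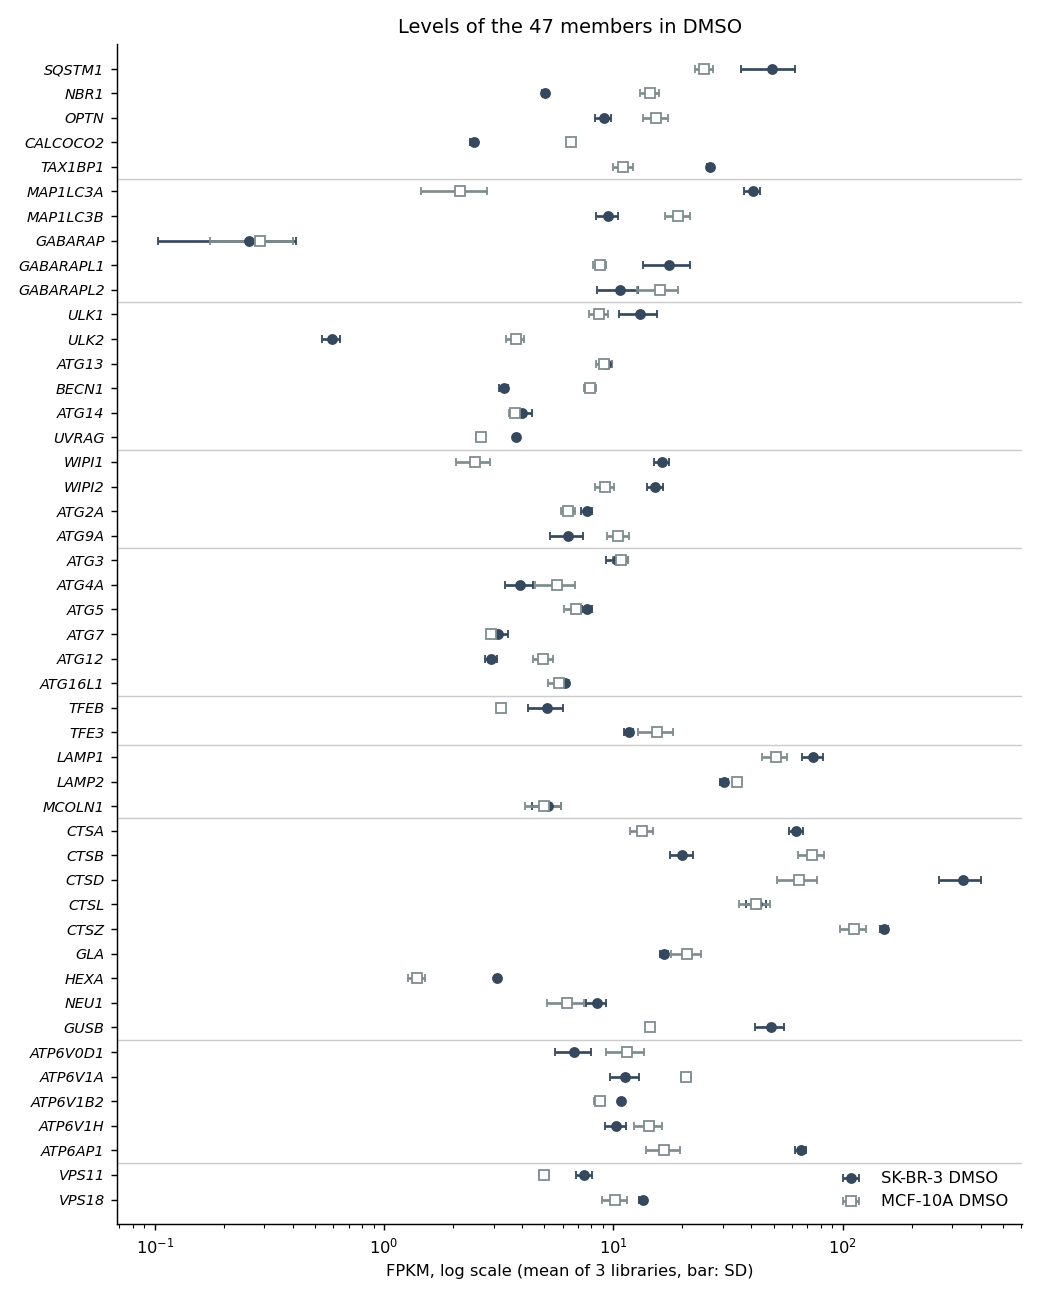
Mean FPKM of the 47 members (horizontal log axis) in SK-BR-3 (filled circles) and MCF-10A (open squares) with DMSO, 3 libraries each, bars showing the SD. MAP1LC3A, WIPI1, CTSA, CTSD and ATP6AP1 lie farther right in SK-BR-3 and CTSB, NBR1 and ULK2 in MCF-10A, and GABARAP is the lowest member in both.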

How the data were processed

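RNA of 12 libraries was sequenced. The submitters' processing notes name STAR 2.6.1d, DESeq2 and the build GRCh38 (hg38). How reads were counted, with or without strand, is not stated there. The authors deposited FPKM for all 58735 genes, whose identifiers all matched GENCODE release 29. For genes at an unadjusted p under 0.05 the authors also deposited read counts, a signal (counts divided by a size factor per library), log2 fold changes, p-values and gene lengths, per the file headers.

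All 704820 FPKM values became whole reads, within 1e-06, after multiplication by GENCODE exon length and the effective library size. limma 3.58.1 (R 4.3.3) was fitted to log2(FPKM + 1) of 13194 genes, using 4 group means, every library and a trended empirical Bayes variance. The p-values thus measure spread among preparations, shared by both lines. Alternatives were the pseudocount, filter, scaling, a replicate block, edgeR 4.0.16, DESeq2 1.42.0, each line alone and leaving out libraries. The scripts were tested on simulated data.

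The labels number the preparations but do not tie equal numbers to 1 day or batch. They were taken as pairs because each DATS library's deviation from its group mean correlated with that of the DMSO library of the same number. The values were 0.394, 0.245 and 0.250 for SK-BR-3, then 0.210, 0.186 and 0.333 for MCF-10A. These correlations came from the same expression values that the block was fitted to, and libraries of different numbers were not compared. Calls made only with the block, and changes taken by preparation, rest on this pairing. The members and comparison lists were chosen with earlier results of these data known. Members called in a DATS contrast, and SQSTM1, MAP1LC3B, LAMP1, CTSD, TFEB and WIPI1, are given by library. Up to 3 members per role are named between lines, and up to 3 called genes per comparison list. Positions are from GENCODE 29.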

Additional observations from a re-analysis of the deposited data

Results flagged for a closer look

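The test of the difference of the responses itself called 2 of 46 members, close to the 4.29% of all tested genes called in either direction. In the 12 fits that left out 1 library, MAP1LC3A lost this call in 8 and ATG2A in 7. For MAP1LC3A the difference (SK-BR-3 minus MCF-10A) was -1.01 on the log2 scale: the change was -0.29 in SK-BR-3, lower in 3 of 3 preparations, and 0.72 in MCF-10A, higher in 3 of 3. For ATG2A the difference was -0.50, with changes of -0.25 in SK-BR-3 (lower in 3 of 3 preparations) and 0.25 in MCF-10A (higher in 3 of 3).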

How the results depend on the processing

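In SK-BR-3, where 14 members were called, the count was 9 with no filter, 21 with the block, 7 in the line alone, 9 in the line alone with the filter within that line, 8 without replicate 1 of both its groups, and 8 to 17 with single libraries left out. Fits without both libraries of a preparation and the filter within a line were chosen after seeing the data. In MCF-10A, where 7 were called, it was 2 with no filter, 18 with the replicate block, 12 with DESeq2, 0 in a fit of that line alone and 11 without replicate 1 of both SK-BR-3 groups. Leaving out single libraries gave 0 to 15. For the difference of the responses, where 2 were called, it was 1 with no filter, 1 without replicate 1 of both SK-BR-3 groups, 3 with the block and 0 to 2 with single libraries left out. Between the DMSO groups it was 35 to 38, against 37. The calls among all genes moved as well. Higher calls in SK-BR-3 were 1485, against 1146 of 32604 genes with no filter, 2257 with the block and 630 in the line alone. In MCF-10A they were 550, against 285 of 32604 with no filter, 1412 with the block, 906 with DESeq2 and 0 in that line alone. Without replicate 1 of both SK-BR-3 groups, they were 1193 in SK-BR-3 and 811 in MCF-10A. The difference was called for 566 genes, and for 1296 with the block. The causes were not tested, and neither was the part of the smaller number of samples in fits without libraries. The other pseudocounts, filters and scalings kept the counts of members within 1.5 times. With edgeR 16 members were called in SK-BR-3, 5 in MCF-10A, 2 for the difference and 37 between the DMSO groups. The 1 reversal was CTSL between the DMSO groups, at -0.23 after quantile normalization against 0.02. The block lies within a cell line and gives no contrast between lines. The lines alone give no difference between responses. GABARAP had 6 to 23 reads and was not tested, and MAP1LC3A in MCF-10A rests on 43 to 133 reads.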
